A study of Mus musculus with 8 samples.

Results

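The 10 genes described here encode heat shock proteins and their close partners: Hspa1a, Hspa1b, Hspa8, Hsph1, Hsp90aa1, Dnajb1, Hspd1, Hspe1, Bag3 and Hspb1. They were chosen by name, and all 10 are among the 40178 genes listed for the colon, the ileum or both. RNAseq was performed on intestinal epithelial cells (IECs) of the colon and the ileum of 2 WTIEC mice, labelled DDX5(+/+) with Vil1Cre(+), and 2 DDX5ΔIEC mice, labelled DDX5(fl/fl) with the same Vil1Cre(+). Cre is driven by the Villin1 promoter, which is active along the gut epithelium, so that both genotypes carry the transgene and only the floxed alleles differ. Each genotype and tissue has 2 libraries, 8 in all. Every mouse gave 1 colon and 1 ileum library, which carry its genotype and replicate number, so that the data rest on 4 mice. The mice were 8 weeks old. The cells were released from the gut wall at 37°C in a wash of 20 min in EDTA (5 mM) and DTT (1 mM). The study's methods add another wash of 20 min at 37°C in EDTA without DTT, and the cells of both washes were pooled without a sort.

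Heat shock proteins bind unfolded protein chains and help them to fold, to stay soluble or to be degraded. The transcription factor HSF1 binds heat shock elements, inverted repeats of the 5-base unit NGAAN, and induces many of these genes within minutes when proteins unfold. In the gut, epithelial heat shock proteins are known for their induction by bacterial products, heat and injury. Hspd1 and Hspe1 encode the chaperonin and co-chaperonin of the mitochondrial matrix, so that 2 of the 10 products do not work in the cytosol.

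The library totals, the reads that the authors counted on genes, were 11571061 to 22984283. Genes of the list took 0.138% to 0.297% of them. Ddx5 was lower in all 4 DDX5ΔIEC libraries, at 326 to 367 CPM (read counts scaled to library size) against 700 to 771 CPM in WTIEC, with a log2 fold change of -1.04 (adjusted p = 0.0866) in the colon and -1.07 (adjusted p = 0.0270) in the ileum. The 11 epithelial marker genes summed to 13900 to 21630 CPM in every library. The 9 T cell marker genes summed to 29.7 and 19.9 CPM in the WTIEC colon, 1.82 and 10.3 CPM in the DDX5ΔIEC colon, 62.0 and 27.2 CPM in the WTIEC ileum, and 70.2 and 20.2 CPM in the DDX5ΔIEC ileum (replicates 1 and 2). Markers of B and plasma cells, myeloid cells, stroma, endothelium, red blood cells and enteric neurons summed to 17.5 CPM or less per list in every library, and each of these 6 lists had markers at 0 in at least 2 libraries, up to 4 of the 9 myeloid markers. Fewer cells of a type and less RNA per cell cannot be told apart in such bulk libraries. In 1 DDX5ΔIEC ileum library, replicate 2, 3 repeat-like genes took 19.5% of the counts, against 4.05% or less in the others.

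The elements that HSF1 is known to bind are short enough to be read directly. Promoter sequences, the 250 bases before each annotated start (RefSeq, GRCm38.p6), were at hand for 8 of the 10 genes, and were searched on both strands for a pair of inverted units, GAANNTTC or TTCNNGAA and for 3 such units in a row. Of 32851 mouse promoters of that length, 12.8% hold a pair and 0.466% hold 3 units. The 30 bases around the matches are shown because they show how alike the elements of Hspa1a and Hspa1b are, and that the elements of Hspe1 and Hspd1 are 1 sequence read from opposite strands (capitals mark the matched pairs).
Hspa1a: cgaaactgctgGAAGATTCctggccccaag
Hspa1b: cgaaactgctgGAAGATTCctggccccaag
Hsph1: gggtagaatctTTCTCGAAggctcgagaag
Hspb1: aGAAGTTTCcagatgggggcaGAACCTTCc
Hspe1: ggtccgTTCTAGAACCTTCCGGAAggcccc
Hspd1: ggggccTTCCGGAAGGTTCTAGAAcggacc

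The Hspa1a stretch is chr17:34972242-34972271 and the Hspa1b stretch chr17:34959324-34959353, both on the minus strand, and both run from 115 to 86 bases before the start. Over the full 250 bases the promoters of the pair differ at 3 positions. The Hsph1 stretch, chr5:149636351-149636380, is on the minus strand and ends 15 bases before the start. The Hspb1 stretch, chr5:135887801-135887830, is on the plus strand and holds 2 separate pairs. The stretch shared by Hspe1 (plus strand) and Hspd1 (minus strand) is chr1:55088053-55088082, and it holds 3 overlapping pairs. Together these give 2 matches to 3 units in a row. None of the other members searched had 3 units in a row, and Hspa1a, Hspa1b, Hsph1 and Hspb1 had pairs only. The Hspd1 match lies before the second of its 2 annotated starts, inside the annotated gene, and none was found before the first. No match was found before the starts of Bag3 and Dnajb1 either, which says only that these letters are not in those windows.

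Hspa1a (ENSMUSG00000091971.3) and Hspa1b (ENSMUSG00000090877.3) encode the stress-inducible HSP70 and have 1 exon each. They lie 9951 bases apart on the minus strand of chromosome 17, at chr17:34969190-34972156 and chr17:34956436-34959238 in GRCm38. Of the 100-base words in the Hspa1a transcript, 47.1% also occur in Hspa1b. A read pair that lies wholly in such words maps to both genes and is not counted where only uniquely mapped reads are kept, so both levels may be understated. Shares of words found in transcripts of other genes were 44.0% for Hspb1, 38.0% for Hsp90aa1, 28.5% for Hspa8 and 23.9% for Hspd1, and 0% for Hsph1, Dnajb1 and Bag3. Hspd1 and Hspe1 overlap head to head by 112 exon bases on opposite strands, and Hspa1a shares 564 exon bases with Gm20481 on the opposite strand. The strand setting of the counting is not given in the sources used here, so reads of these partners, and with them the level of Hspa1a and its ratio to Hspa1b, may be affected. Hspa8 shares 86, 86 and 90 exon bases with the small nucleolar RNA genes Snord14c, Snord14d and Snord14e on the same strand. Their part in its count was not tested.

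Per kilobase of exon, Hspa8, the constitutive HSP70 of the cytosol, was the most abundant member in all 4 groups. Its level was 238 ± 37.8 CPM per kb (SD, n = 2) in the WTIEC colon and 211 ± 12.3 CPM per kb in the WTIEC ileum, above the next member without overlap. Hspd1 followed at 90.8 ± 10.1 and 109 ± 22.5 CPM per kb. Hsp90aa1, the inducible HSP90 of the cytosol, came next at 62.1 ± 19.5 and 61.0 ± 17.4 CPM per kb. In the WTIEC colon the libraries of Hsp90aa1, Hspa1b, Hspe1, Dnajb1 and Hspa1a overlapped from one gene to the next, so that their order is not resolved. Bag3, a nucleotide exchange factor that links HSP70 to autophagy, had 8.86 ± 1.00 CPM per kb there, and Hsph1, an HSP110 that also acts as an exchange factor of HSP70, had 6.17 ± 4.89 CPM per kb, without separation. Hspb1, the small heat shock protein HSP25, was last in every group, with 26 reads or fewer in each library.

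**Figure D1:**
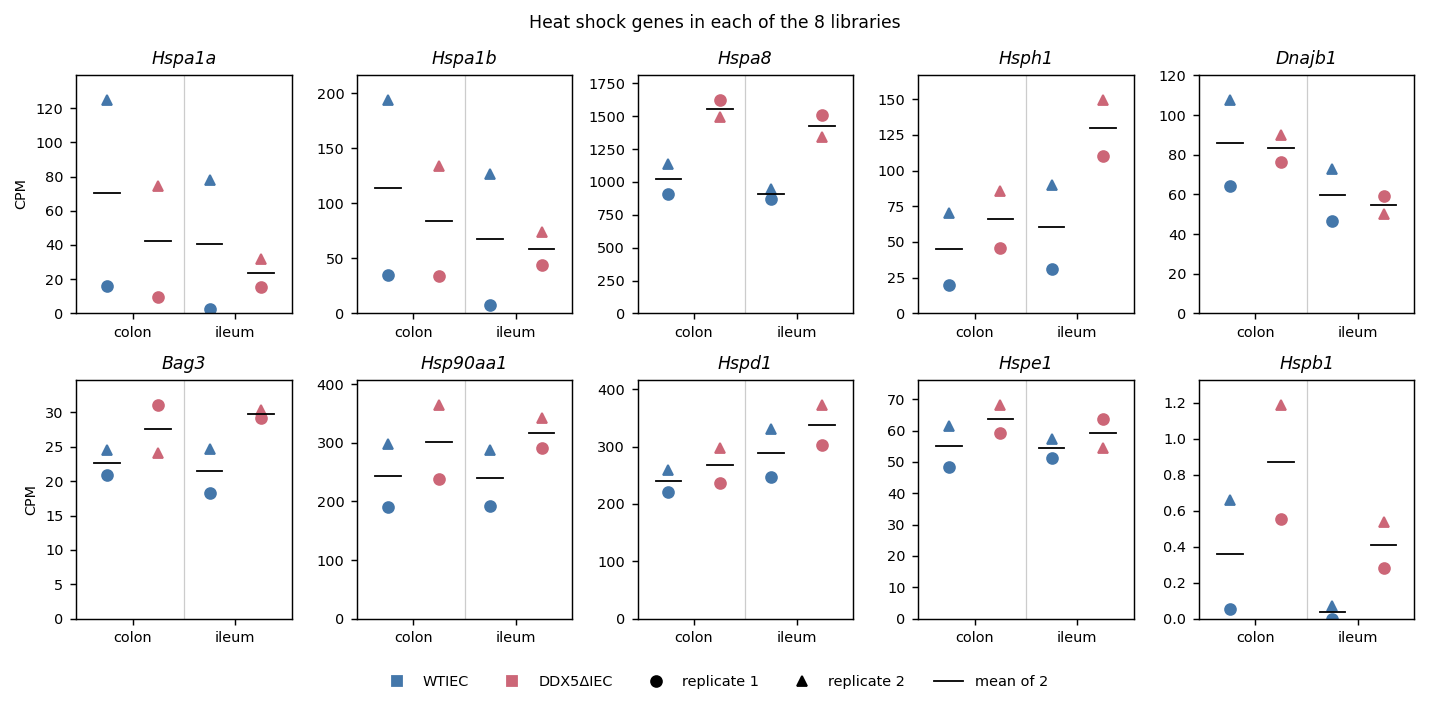
CPM of each gene (vertical axes, from 0) in the 8 libraries by tissue, with WTIEC in blue and DDX5ΔIEC in red, replicate 1 as a circle, replicate 2 as a triangle and the mean of 2 as a line. For Hspa1a and Hspa1b the triangles lie above the circles of both genotypes in both tissues, whereas for Hspa8 the DDX5ΔIEC libraries lie above the WTIEC libraries in both tissues.

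The first comparison asked whether the loss of epithelial DDX5 changed these genes in the colon. No member passed the adjusted threshold there, and neither did any of the 15362 genes tested (0% called, edgeR, adjusted p under 0.05), of which 1836 had an unadjusted p under 0.05. DESeq2 with the same terms called 120 genes. By the study's criterion, an unadjusted p under 0.05 and a log2 fold change of 0.5 or more in either direction, Hspa8 and Hsph1 were higher in DDX5ΔIEC, where 3.04% of all genes were, and Hspa1a was lower, where 3.67% were. Of the 10 members, 7 had a positive log2 fold change, with a median of 0.23 against -0.00 over all genes. The T cell markers given above were also lower in the DDX5ΔIEC colon. Other marker lists differed too, with 0 genes past the adjusted threshold. The 6 marker genes of colon identity summed to 3576 and 3795 CPM in WTIEC and 4455 and 4804 CPM in DDX5ΔIEC. By sign, 6 of 6 of them and 3 of 3 tested B and plasma cell markers were higher. Of the tested stroma markers, 5 of 5 were lower. The part of these differences in the members' values was not tested.

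Hspa8 was counted at 909 and 1139 CPM in the WTIEC colon and at 1623 and 1495 CPM in the DDX5ΔIEC colon. The genotypes did not overlap, as for 23.8% of all genes in the same direction. The log2 fold change was 0.60 ± 0.14 (SE, adjusted p = 0.300), and DESeq2 with the same terms put its adjusted p at 0.0166. Hspa8 binds nascent chains and carries out much of the folding of the unstressed cell.

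Hsph1 had 19.7 and 69.9 CPM in the WTIEC colon and 46.0 and 85.5 CPM in the DDX5ΔIEC colon. The genotypes overlapped, yet within each replicate number the DDX5ΔIEC library was the higher, 2.33-fold for number 1 and 1.22-fold for number 2. The log2 fold change was 0.73 ± 0.24 (adjusted p = 0.358). Without WTIEC colon replicate 1 and without the replicate term, which 3 libraries cannot carry, it was -0.10.

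Hspa1a had 16.3 and 125 CPM in the WTIEC colon and 9.77 and 74.7 CPM in the DDX5ΔIEC colon. The 2 libraries of each genotype were 7.66-fold and 7.64-fold apart, far more than the genotypes. Within both replicate numbers DDX5ΔIEC had 0.600-fold and 0.599-fold of the WTIEC level, a log2 fold change of -0.75 ± 0.10 (adjusted p = 0.176). DESeq2 with the same terms put its adjusted p at 0.0152, and without the replicate term edgeR put it at 0.833. With a library left out, and the replicate term with it, the direction turned without WTIEC replicate 2 (1.37) and without DDX5ΔIEC replicate 1 (0.06). Hspa1b had 34.9 and 194 CPM in WTIEC and 33.8 and 134 CPM in DDX5ΔIEC, with a log2 fold change of -0.31 ± 0.14 (adjusted p = 0.462).

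None of the other members passed a threshold in the colon by size and p. Hsp90aa1 had 190 and 298 CPM in WTIEC and 239 and 364 CPM in DDX5ΔIEC, a log2 fold change of 0.30 ± 0.08 (adjusted p = 0.330). Dnajb1, the J protein that delivers clients to HSP70 and whose gene is a known HSF1 target, had a log2 fold change of -0.02 ± 0.14. Bag3 was at 0.26 ± 0.17, Hspd1 at 0.14 ± 0.08 and Hspe1 at 0.21 ± 0.10. Hspb1, with 1 and 15 reads in WTIEC and 10 and 26 reads in DDX5ΔIEC, had a log2 fold change of 1.35 ± 0.61 (adjusted p = 0.463), which its depth does not resolve. The colon calls changed with single libraries left out, in fits without the replicate term that assume the lone library to vary like the other group. Without DDX5ΔIEC replicate 1, Hspa8 (0.53), Hsph1 (0.91) and Hsp90aa1 (0.56) passed the adjusted threshold, as did 5.93% of all genes. Without DDX5ΔIEC replicate 2, Hspa8 (0.65), Bag3 (0.43), Hspa1a (-2.88) and Hspa1b (-1.78) did, with 15.8% of all genes.

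The same question was asked in the ileum. Hsph1 rose in DDX5ΔIEC and was the only one of the 9 members tested to pass the adjusted threshold, which 98 of 14068 genes passed (0.697%). By the study's criterion Hsph1 and Hspa8 were higher, where 3.87% of all genes were, and no member was lower, where 3.48% were. The log2 fold changes of 8 of the 9 members were positive, with a median of 0.43 against -0.00 over all genes. Hspb1 had 0 and 1 read in WTIEC and 3 and 5 reads in DDX5ΔIEC and was below the count filter.

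Hsph1 was counted at 30.9 and 90.2 CPM in the WTIEC ileum and at 110 and 149 CPM in the DDX5ΔIEC ileum, without overlap, as for 18.7% of all genes in the same direction. Its log2 fold change was 1.28 ± 0.22 (edgeR, adjusted p = 0.0303). The call rested on the replicate term, since without it the log2 fold change was 1.10 (adjusted p = 0.601). Without the 3 repeat-like genes the log2 fold change was 1.28 (adjusted p = 0.0804). With any 1 of the 4 libraries left out, and the replicate term with it, the call was lost at log2 fold changes of 0.52 to 2.07.

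Hspa8 had 870 and 945 CPM in the WTIEC ileum and 1509 and 1344 CPM in the DDX5ΔIEC ileum, again without overlap. The log2 fold change of 0.65 ± 0.21 (adjusted p = 0.230) was close in size to that in the colon. In both tissues, then, both DDX5ΔIEC libraries stood above both WTIEC libraries for Hspa8, although the tissues share their 4 mice and are not independent. Bag3 had 18.3 and 24.6 CPM in WTIEC and 29.2 and 30.4 CPM in DDX5ΔIEC, a log2 fold change of 0.49 ± 0.16 (adjusted p = 0.230), and Hsp90aa1 had 191 and 288 CPM against 290 and 342 CPM, a log2 fold change of 0.43 ± 0.16 (adjusted p = 0.312). Both genes were free of overlap between the genotypes in the ileum and overlapped in the colon.

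Hspa1a and Hspa1b could not be placed in the ileum. Hspa1a had 2.81 and 77.9 CPM in WTIEC and 15.4 and 32.0 CPM in DDX5ΔIEC, so that the DDX5ΔIEC library was 5.46-fold higher within replicate number 1 and 0.411-fold the WTIEC level within number 2. Its log2 fold change was 0.24 ± 0.61 (adjusted p = 0.922) and became -0.76 without the replicate term. Hspa1b had 7.75 and 127 CPM in WTIEC and 43.8 and 73.7 CPM in DDX5ΔIEC, a log2 fold change of 0.73 ± 0.56 (adjusted p = 0.658), which became -0.19 without the replicate term. The remaining members had log2 fold changes of -0.09 ± 0.19 (Dnajb1), 0.24 ± 0.16 (Hspd1) and 0.12 ± 0.15 (Hspe1).

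**Figure D2:**
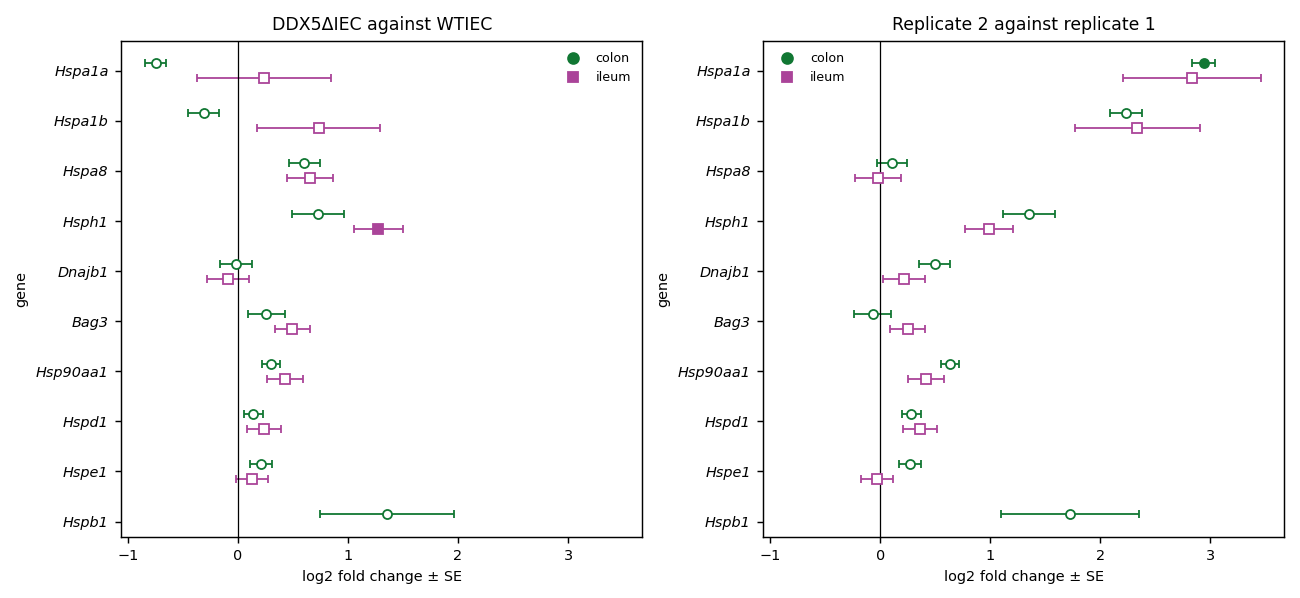
Log2 fold change with its SE (edgeR, horizontal axes) of each gene for DDX5ΔIEC against WTIEC (left) and for replicate 2 against replicate 1 libraries (right), with the colon as green circles and the ileum as purple squares. Filled symbols, Hsph1 of the ileum at left and Hspa1a of the colon at right, have an adjusted p under 0.05, and Hspb1 was not tested in the ileum.

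For Hspa1a and Hspa1b the libraries differed more between replicate numbers than between genotypes. This comparison of the libraries numbered 2 with those numbered 1, through the replicate term of the same fit, was made after the values were seen. The numbers come from the labels, which do not say whether mice with the same number shared a cage, a day or a harvest. The study's figure legends describe 2 pairs of cohoused littermates of both genotypes, without linking the pairs to these numbers. In the colon, Hspa1a was higher in the replicate 2 libraries by a log2 fold change of 2.94 ± 0.10 (adjusted p = 0.0179), and it was the only gene of 15362 past the threshold (0.00651%). DESeq2 with the same terms called 15 genes, among them Hspa1a, Hspa1b, Hsph1 and Hsp90aa1. In fits without the genotype term, the edgeR call for Hspa1a was lost without WTIEC colon replicate 2 (log2 fold change 2.51) and without DDX5ΔIEC colon replicate 2 (log2 fold change 3.27), when no gene was called. The log2 difference of Hspa1b was 2.23 ± 0.15 (adjusted p = 0.189), that of Hsph1 1.35 ± 0.24 and that of Hsp90aa1 0.63 ± 0.08 (both adjusted p = 0.821). Hspa8 was at 0.11 ± 0.14 (adjusted p = 0.906). In 8 of 10 members both replicate 2 libraries of the colon lay above both replicate 1 libraries, as did 15.1% of all genes, and Hspa8 and Bag3 were the other 2.

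In the ileum, where each library came from the same mouse as in the colon, the replicate 2 libraries were again higher for Hspa1a, by a log2 fold change of 2.83 ± 0.63 (adjusted p = 0.0796), for Hspa1b, by 2.34 ± 0.57 (adjusted p = 0.121), and for Hsph1, by 0.99 ± 0.22 (adjusted p = 0.0820). No member passed the threshold, which 0.768% of all genes did. With no filter on low counts all 3 passed it, as did 0.921% of all genes. T cell markers also differed along the replicate number. In the replicate 2 libraries of the ileum 7 of 7 tested were lower by sign, 2 of them past the adjusted threshold. In the colon 7 of 8 were higher by sign and 0 passed. The 6 marker genes of ileum identity summed to 8621 and 9844 CPM in the replicate 1 ileum libraries of WTIEC and DDX5ΔIEC. In their replicate 2 libraries the sums were 5921 and 8364 CPM. By sign, 4 of the 6 were lower there and 2 higher, with 1 lower past the adjusted threshold. Of the 11 epithelial markers 8 were lower and 3 higher, and 0 passed. The part of these markers in the result was not tested. The WTIEC mice were 27.7-fold apart for Hspa1a and 16.4-fold apart for Hspa1b, and the DDX5ΔIEC mice 2.08-fold and 1.68-fold. Both replicate 2 libraries lay above both replicate 1 libraries for Hspa1a, Hspa1b and Hspd1, 3 of 10 members, as for 17.6% of all genes. Hspa8 was at -0.02 ± 0.21 and Hsp90aa1 at 0.42 ± 0.16.

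The summed level of Hspa1a and Hspa1b showed the same split. Like the level of each gene, the sum lacks read pairs that map to both genes, and it may be affected by reads of Gm20481. In the colon it was 51.2 and 43.6 CPM in the replicate 1 libraries of WTIEC and DDX5ΔIEC, and 318 and 208 CPM in the replicate 2 libraries. In the ileum it was 10.6 and 59.2 CPM, and 205 and 106 CPM. Hspa1b held 1.55 to 3.46 times the reads of Hspa1a. The 14 immediate early genes, such as Fos, Jun and Egr1, which cells also switch on within minutes of disturbance, ran the other way in their sum: 3041 and 3096 CPM in the replicate 1 libraries of the colon and 2565 and 2440 CPM in the replicate 2 libraries, and 1908 and 1819 CPM against 1548 and 1663 CPM in the ileum. None of the 14 passed the adjusted threshold between replicates by edgeR or DESeq2, while 9 in the colon had an unadjusted p under 0.05 by edgeR (5.29% of all genes did), as did 4 in the ileum (10.2% of all genes). By sign, 12 of the 14 were lower in the replicate 2 libraries of the colon, as were 13 in those of the ileum. Their part in the result was not tested.

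**Figure D3:**
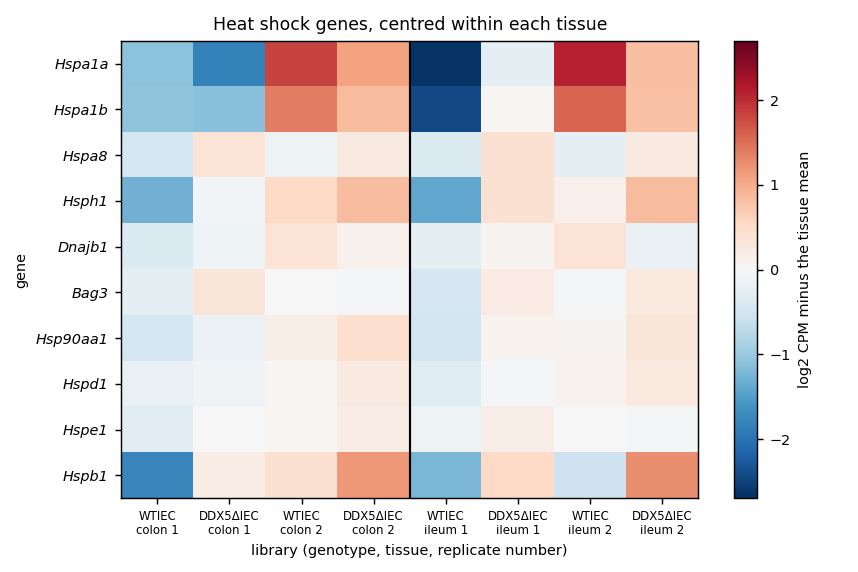
Log2 CPM of each gene (rows) in each library (columns: genotype, tissue and replicate number) minus the mean of the 4 libraries of that tissue, in log2 units on the colour scale (blue low, red high). Hspa1a, Hspa1b and Hsph1 are lowest in WTIEC replicate 1 of the ileum, and Hspa8 runs from -0.469 to 0.409.

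The members differed in how closely they followed each other. Centred within each tissue, the log2 CPM of Hsp90aa1 had a Pearson's r of 0.96 with the mean of the other 9 members over the 8 libraries, that of Hsph1 0.95, that of Hspd1 0.92 and that of Hspa1b 0.90. Bag3 had 0.58 and Hspa8 0.49, the lowest. The 8 libraries come from 4 mice and all values share their library's scaling, so that these are descriptions. Among 8912 other genes with a mean of at least 10 CPM, the 5 with the pattern most like the members' mean over the 8 libraries were Ncbp2 (r = 0.98), Dcaf10 (0.98), Irgq (0.97), Dnaja1 (0.96) and Ran (0.95). Dnaja1, a J protein that works with HSP70, was at 79.7 and 153 CPM in the WTIEC colon and 97.0 and 140 CPM in the DDX5ΔIEC colon. In the ileum it was at 101 and 172 CPM in WTIEC and 166 and 158 CPM in DDX5ΔIEC. The others moved less. Over the colon libraries Ncbp2 ran from 16.1 to 19.0 CPM, Dcaf10 from 35.7 to 39.5, Irgq from 33.7 to 38.2 and Ran from 115 to 123. The members' mean follows most the members with the widest range. In the ileum, centred log2 CPM ran from -2.65 to 2.09 for Hspa1a and from -0.33 to 0.26 for Hspd1.

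The comparison of ileum with colon asked whether these genes depend on the gut segment. No member passed the adjusted threshold in WTIEC or in DDX5ΔIEC over the 8 libraries without a mouse term (edgeR), while 34.2% and 35.3% of all genes did. In WTIEC, 1 member had an unadjusted p under 0.05 (43.8% of all genes did), and in DDX5ΔIEC 0 did (45.1% of all genes). No member was called by DESeq2. With the mouse as a block, which fits the 2 segments of each mouse together, 4 members passed in WTIEC and 3 in DDX5ΔIEC, at a background of 37.7% and 37.8% of all genes. Dnajb1 was lower in the ileum in both genotypes with the block, by a log2 fold change of -0.51 (adjusted p = 0.0202) in WTIEC and -0.60 (adjusted p = 0.0116) in DDX5ΔIEC. Hsph1 was higher in the ileum, by 0.50 (adjusted p = 0.0285) and 1.03 (adjusted p = 0.00144). With the block, Hspa1b was lower in the WTIEC ileum (-1.30, adjusted p = 0.0406), and Hspd1 was higher in the DDX5ΔIEC ileum (0.34, adjusted p = 0.0490). Hspb1 was also lower in the WTIEC ileum with the block (-3.11, adjusted p = 0.0379). It had 0 and 1 read there against 1 and 15 reads in the WTIEC colon, a depth that does not resolve it.

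Dnajb1 had 64.3 and 108 CPM in the WTIEC colon, 76.3 and 90.1 CPM in the DDX5ΔIEC colon, 46.8 and 72.8 CPM in the WTIEC ileum and 59.3 and 50.1 CPM in the DDX5ΔIEC ileum. Each mouse had less Dnajb1 in its ileum than in its colon. Hspd1 had 221 and 259 CPM, 237 and 298 CPM, 247 and 331 CPM, and 304 and 372 CPM in the same order, and each mouse had more of it in its ileum. Without the block the log2 fold changes were -0.53 ± 0.27 and -0.60 ± 0.27 for Dnajb1 and 0.27 ± 0.19 and 0.34 ± 0.19 for Hspd1. For Hspa8 they were -0.17 ± 0.17 and -0.13 ± 0.17, and for Hsph1 0.42 ± 0.63 and 0.98 ± 0.62.

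Whether the genotypes differed by another amount in one segment than in the other was tested as an interaction. No member passed (edgeR, adjusted p of 1 for all 10), 0 of them had an unadjusted p under 0.05 (4.67% of all genes did), and 2 of 16178 genes passed (0.0124%). DESeq2 called no member either. That fit takes no account of the mice that the tissues share. With the mouse as a block no member passed, and the difference for Hsph1, a log2 value of 0.53, had an unadjusted p of 0.0306 by edgeR (adjusted p = 0.753). The rise of Hsph1 in the ileum was not shown to differ from its values in the colon at the adjusted threshold.

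**Figure D4:**
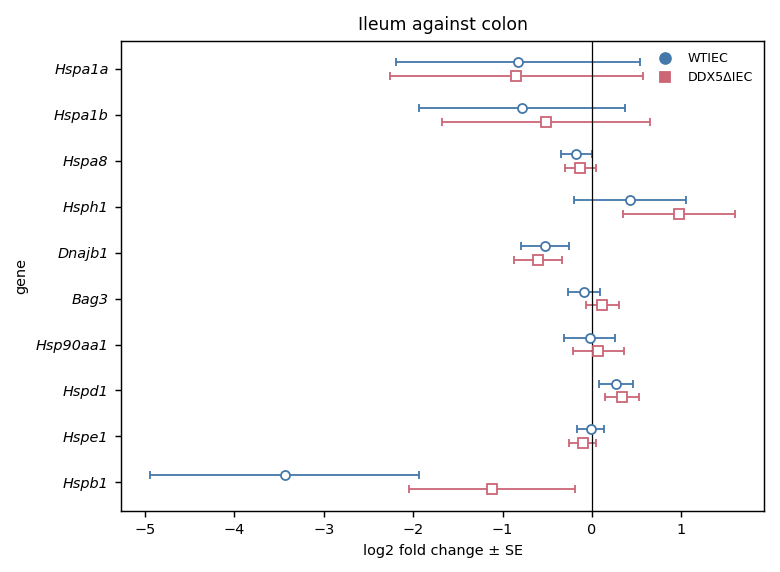
Log2 fold change with its SE (edgeR, all 8 libraries, no mouse term) of each gene for ileum against colon in WTIEC (blue circles) and DDX5ΔIEC (red squares). Open symbols mark that no member passed the adjusted threshold, and the bars of Hspa1a, Hspa1b and Hspb1 are the widest.

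Around the 10 members, 72 further chaperone genes in 10 lists were examined, of which 64 were tested in the colon and 63 in the ileum. None passed the adjusted threshold between genotypes by edgeR or DESeq2 in either tissue, and 9 and 10 had an unadjusted p under 0.05 by edgeR, where 12% and 12.3% of all genes did. By the study's criterion 2 were higher in the DDX5ΔIEC colon (3.13% of those tested, near the background of 3.04%), 4 were higher in the ileum (6.35% against 3.87%), and 0 were lower in either. The log2 fold change was positive for 44 of 64 in the colon (median 0.07) and for 52 of 63 in the ileum (median 0.15), against 49.9% and 49.1% of all genes. As for the members, these genes share 4 mice and the scaling of each library, so that their signs are not independent. The lists were chosen with earlier results of these data known.

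Of the 4 genes of the ileum, 2 belong to the list of HSP90 and its co-chaperones. Chordc1, a zinc-binding partner of HSP90, had a log2 fold change of 0.51 ± 0.11 in the colon (adjusted p = 0.272) and 0.59 ± 0.16 in the ileum (adjusted p = 0.156). Stip1, the adaptor that hands clients from HSP70 to HSP90, was at 0.44 ± 0.09 (adjusted p = 0.272) and 0.58 ± 0.13 (adjusted p = 0.0974). Both genes had all 4 DDX5ΔIEC libraries above both WTIEC libraries of the same tissue. Such a separation was seen for 23.8% of all colon genes tested and for 18.7% of those tested in the ileum. The tissues share their 4 mice, so the 2 separations are not independent. Hsp90ab1, the constitutive HSP90, was at 0.14 ± 0.09 and 0.30 ± 0.19. Of its 9 genes, 9 had a positive log2 fold change in the colon, while 8 did in the ileum, with medians of 0.14 and 0.30.

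Hspa5, the HSP70 of the endoplasmic reticulum, was at 0.36 ± 0.11 in the colon (adjusted p = 0.342) and at 0.60 ± 0.19 in the ileum (adjusted p = 0.215), and the 10 endoplasmic reticulum chaperones had medians of 0.03 and 0.22. Hspb11, a small heat shock family name given to a subunit of the ciliary transport complex, was at 0.61 ± 0.15 (adjusted p = 0.307) and 0.81 ± 0.28 (adjusted p = 0.265). Hspa4, an HSP110, was at 0.23 ± 0.08 and 0.21 ± 0.14. All 8 subunits of TRiC, the cytosolic chaperonin that folds actin and tubulin, were positive in both tissues, with medians of 0.09 and 0.13, and none had an unadjusted p under 0.05. The level of Hsf1 was 13.8 to 18.6 CPM over the 8 libraries, with log2 fold changes of -0.11 ± 0.12 and 0.06 ± 0.17 between genotypes.

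**Figure D5:**
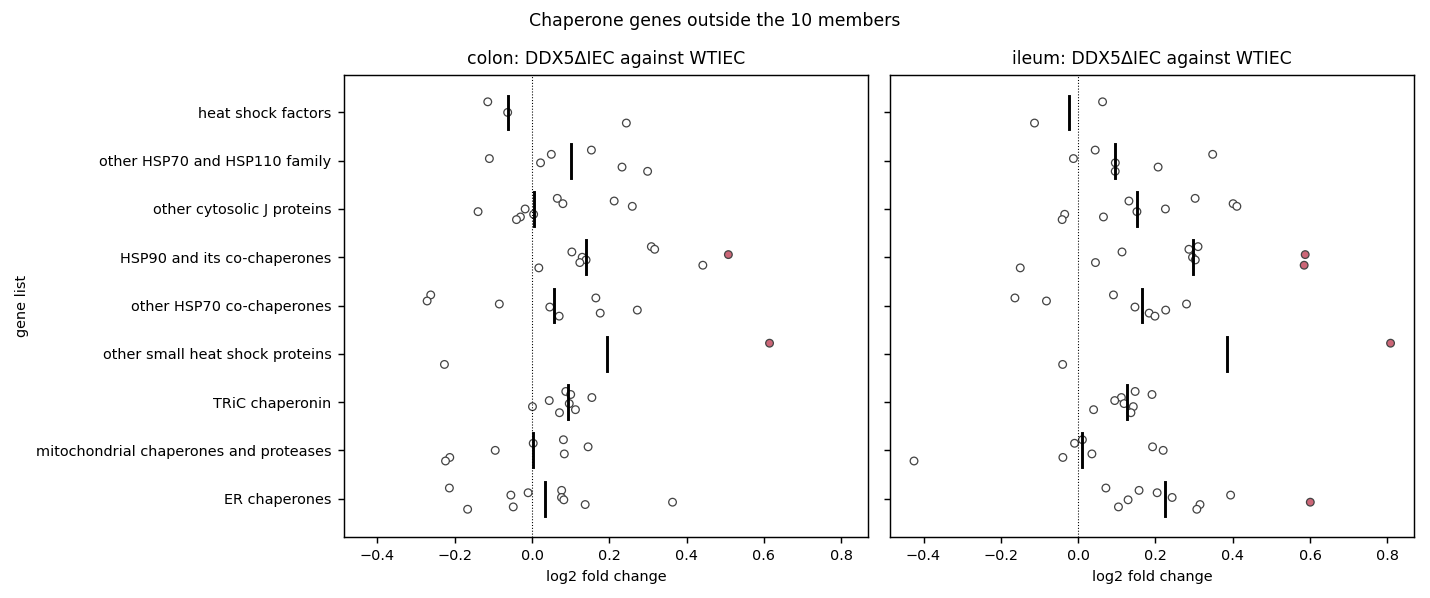
Log2 fold change of DDX5ΔIEC against WTIEC (edgeR) for each tested gene of 9 of the 10 chaperone lists (rows, 1 circle a gene) in the colon and the ileum, with the list's median as a bar and genes past the study's criterion filled in red. The filled circles, 2 in the colon and 4 in the ileum, all lie right of 0.

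Between ileum and colon, 9 of 66 tested genes of these lists passed the adjusted threshold in WTIEC and 11 in DDX5ΔIEC. Of all genes, 34.2% and 35.3% passed, a larger share than in these lists. Dnaja4, a J protein, fell the most from colon to ileum, by a log2 fold change of -1.92 ± 0.25 (adjusted p = 0.000624) in WTIEC and -1.63 ± 0.26 (adjusted p = 0.00178) in DDX5ΔIEC. Hspb11, Dnajb4, St13 and Hsf2 were also lower in the ileum in both genotypes by edgeR. DESeq2 did not call Hsf2 in either genotype, nor Dnajb4 in DDX5ΔIEC. Canx, the lectin chaperone of the endoplasmic reticulum, was higher in the ileum by 0.82 ± 0.15 (adjusted p = 0.00346) and 0.88 ± 0.15 (adjusted p = 0.00244), as were Bag4 and Hspa12a in both genotypes and Dnajb9, Dnajc3 and Hyou1 in DDX5ΔIEC.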

How the data were processed

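RNAseq of EDTA-released IECs was analysed in 8 libraries. The authors made ribosome-depleted, stranded libraries, aligned them to mm10 with STAR 2.6.1a, counted uniquely mapped reads over exons with featureCounts and deposited raw counts, one table per tissue. Columns of normalized values and of the authors' comparison (fold changes and p-values) were not used, and 0 per-sample columns of other samples were found. The mouse behind each library was taken from the mouse numbers in the study's supplement.

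Raw counts were filtered with filterByExpr (minimum count 10), scaled with TMM and tested with edgeR 4.0.16 (R 4.3.3) by the quasi-likelihood test with Benjamini-Hochberg adjustment over all genes tested. Genotype was tested within each tissue with a term for the replicate number, since the authors' model had a harvest covariate. Tissue and interaction were tested over 8 libraries as 4 group means, and a gene listed in 1 table counted 0 in the other. Fold changes count as called at an adjusted p under 0.05. CPM were scaled by TMM over the 8 libraries, SE is the log2 fold change divided by the root of the F statistic, and gene lengths are those listed in the deposited tables. For 2 against 2 libraries the smallest two-sided exact permutation p is 0.333, so no such test was run. The p-values of the genotype fits rest on the spread that the replicate term leaves among 4 libraries, not on the full spread between mice. Those of the tissue and interaction fits without a mouse term rest on the spread between the 2 libraries of each group. They take no account of the mice that the tissues share.

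The genes named are the 10 members, Ddx5, Hsf1, Hsp90ab1, Hspa4, Stip1 and Hspa5, up to 12 genes per comparison with the smallest p among the wider lists past a threshold, and the 5 genes most like the members' mean. Of these, 1 gene of the wider lists is not reported here. The members and lists were chosen with earlier results of these data known. The alternatives were DESeq2 1.42.0, RLE scaling, no filter, no replicate term, 1 fit of 8 libraries, the mouse as a block, leaving out 3 repeat-like genes (Gm21738, Gm10800 and Gm10801), and leaving out each library, which for genotype was fitted without the replicate term and for the replicate comparison without the genotype term, since 3 libraries cannot carry both. The genotype fit was also run on simulated counts with the same spread for every gene and no replicate or mouse effect. That run therefore says nothing about genes that differ between replicates as Hspa1a and Hspa1b do. The deviations of same-mouse libraries in colon and ileum had an r of 0.14 in WTIEC and 0.142 in DDX5ΔIEC over 16178 genes. Same-numbered libraries of different mice had 0.00559 in the colon and 0.24 in the ileum. These values do not show which libraries share a mouse. Positions and shared words come from GENCODE vM21 (GRCm38), and promoters from RefSeq.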

Additional observations from a re-analysis of the deposited data

How the results depend on the processing

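With 4 mice, the counts of members called depended on the fit. In the colon genotype comparison, the 0 members past the adjusted threshold became 2 by DESeq2 with the replicate block and 1 by DESeq2 without it, and 0 to 4 with a library left out. The 3 members past the study's criterion became 1 without the replicate block, in the fit of 8 libraries and by DESeq2 without the block, and 0 to 4 with a library left out. In the ileum genotype comparison, the 1 member past the adjusted threshold became 0 without the replicate block, in the fit of 8 libraries, by DESeq2 without the block and without the 3 repeat-like genes, 2 with no filter on low counts, and 0 with any library left out. The 2 members past the study's criterion became 3 with no filter (Hspa1b joined) and without the repeat-like genes (Bag3 joined), 1 in the fit of 8 libraries and by DESeq2 without the block, and 1 to 5 with a library left out. For replicate 2 against 1 in the colon, the 1 member became 4 by DESeq2 and 0 to 3 with a library left out. In the ileum, the 0 members became 3 with no filter and 0 to 3 with a library left out. For ileum against colon, the 0 members became 4 in WTIEC and 3 in DDX5ΔIEC with the mouse as a block, 4 in both with no filter, and 0 to 1 in WTIEC with a library left out. The interaction gave 0 in every fit run. Fits with a library left out also lack the replicate term (genotype) or the genotype term (replicate), and the cause of a change was not tested.

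Directions turned for these log2 fold changes among those given above. In the ileum genotype comparison, Hspa1a went from 0.24 to -0.76 without the replicate block, -0.75 in the fit of 8 libraries and -0.79 by DESeq2 without the block, and Hspa1b from 0.73 to -0.19, -0.19 and -0.22. With a library left out, the ranges were -1.72 to 3.07 (Hspa1a), -1.11 to 2.92 (Hspa1b) and -0.41 to 0.23 (Dnajb1) in the ileum, and -2.88 to 1.37 (Hspa1a), -1.78 to 1.25 (Hspa1b), -0.10 to 1.73 (Hsph1), -0.39 to 0.36 (Dnajb1), -0.049 to 0.66 (Hsp90aa1) and -0.035 to 0.30 (Hspd1) in the colon. For replicate 2 against 1, Hspa8 ranged from -0.29 to 0.54 in the colon and from -0.40 to 0.40 in the ileum. For ileum against colon, Hspa1b ranged from -3.89 to 0.93 in WTIEC and from -1.20 to 0.79 in DDX5ΔIEC, and Hsph1 from -0.54 to 1.61 in WTIEC. Hsph1 in the interaction ranged from -0.64 to 1.52. Of the members whose values are not given one by one, the direction turned under at least 1 setting for 4 of 4 in each tissue comparison (Hspa1a, Hsp90aa1, Bag3 and Hspe1), for 1 of 5 (Bag3) between replicates in the colon, for 3 of 4 (Bag3, Dnajb1 and Hspe1) in the ileum, and for 9 of 10 in the interaction, Hsph1 included. Same-numbered libraries of the 2 genotypes had an r of 0.00559 (colon) and 0.24 (ileum) between their deviations over genes. With RLE scaling, 4 of the 5 genes most like the members' mean remained. With the longest transcript as the length, 11 levels per kb moved by more than their SD.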
